A study of Mus musculus with 7 samples.

Results

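The comparison of all CXCL12 libraries with saline asked which transcripts of the mouse uterus stood on 1 side of saline in every library that received CXCL12, at either time. It used all 7 libraries of the series, 5 CXCL12 and 2 saline, and 14850 of 23282 gene rows, those with at least 10 counts in at least 2 libraries after each library was scaled to the same total. All libraries came from uteri of C57BL/6 female mice of 6 weeks. In the CXCL12 group, 100 ng of recombinant human CXCL12 in 30 µl had been infused into a uterine horn, and the tissue was taken at Day 3 (2 libraries) or Day 8 (3 libraries). In the saline group, the vehicle had been infused into the opposite horn, and the labels give those 2 libraries no day. Saline horns thus belonged to animals that also received CXCL12 in the other horn. The sources used here do not give which libraries came from the same animal, so the P values measure only the spread between these libraries. Day 8 replicate 1 carries Day 3 in the name of its table while its label says Day 8. The comparison of all CXCL12 libraries with saline pools both days and so does not depend on how that library is dated, whereas values given for a single day do.

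CXCL12 is a chemokine that binds the receptors CXCR4 and ACKR3, a scavenging receptor also known as CXCR7. In the uterus it is known for drawing leukocytes and endothelial cells, and the decidualizing endometrium is rich in natural killer (NK) cells and macrophages. Neutrophils and inflammatory monocytes enter tissue after injury and carry transcripts such as S100a8, S100a9 and Il1b, whereas NK cells carry receptors of the Klr family, the activating receptor Ncr1 and the chemokine Xcl1.

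QuantSeq reads the 3′ end of polyadenylated RNA, so values are given as normalized counts, meaning counts scaled to the median library total of 9941132 and then quantile-normalized across the 7 libraries, with no correction for transcript length. A log2 difference is CXCL12 minus saline on log2(normalized count + 1), which understates the change of low genes. Saline totals were 6908790 and 9491691 counts. CXCL12 totals were 9968909 for Day 3 replicate 2 and 9601312, 12308982 and 9941132 for Day 8 replicates 1, 2 and 3, while Day 3 replicate 1 was deposited as log2 values that correspond to about 10454368 reads. After scaling, 3 counts were worth between 2.42 and 4.32 normalized units in these libraries, and a value under that floor is not distinguishable from 0 in counting error alone. Defining markers of the uterus were present, since the homeobox gene Hoxa10 was at 833 or more and the progesterone receptor gene Pgr at 1879 or more in every library.

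Saline replicate 1 stood apart from the other libraries. Its Pearson correlation across genes averaged 0.887 with the other 6 libraries, whereas the averages of the others ranged from 0.903 to 0.926. Across genes, which are not independent replicates, the 2 saline libraries correlated at 0.900 and the 2 Day 3 libraries at 0.976. Day 8 replicate 1 correlated at 0.950 and 0.953 with the Day 3 libraries and at 0.894 and 0.901 with the other Day 8 libraries. Ovarian transcripts also differed between libraries. The summed level of 21 tested ovarian markers was 3555 and 13814 in saline, 1702 and 2065 at Day 3, and 1997, 36847 and 575 at Day 8. Hsd3b1, the most abundant of them and a steroid-synthesizing enzyme of the ovary, was at 736 and 7712 in saline, 1.05 and 0.542 at Day 3, and 589, 20860 and 5.79 at Day 8. No ovarian marker had all CXCL12 libraries on 1 side of saline, against 10.9% of all genes. The median log2 difference of the ovarian markers was -2.75. Fatty tissue showed another pattern. Fabp4, the fatty acid carrier of adipocytes, was at 2250 and 17072 in saline, 11445 and 1390 at Day 3, and 968, 1441 and 1050 at Day 8.

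All 5 CXCL12 libraries were above both saline libraries for 800 genes (5.39% of those tested) and below both for 820 genes (5.52%), together 10.9%. If the 7 libraries were exchangeable, the expected share of genes on 1 side would be 0.0952, given the 21 ways to choose 2 libraries. Most of these separations were narrow. The median gap between the nearest CXCL12 and saline libraries was 0.14 on the log2 scale for the higher genes and 0.13 for the lower ones, and 27 and 18 genes had a gap of at least 1. At the border, Ptdss1 was just inside the higher set with 572 and 555 in saline against 573 in its lowest CXCL12 library, and Btg2 was just outside it with 297 in both its higher saline and its lowest CXCL12 library. The median log2 difference was 0.60 at Day 3 and 0.69 at Day 8 for the higher genes, and -0.61 and -0.64 for the lower genes.

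By limma, 499 genes (3.36%) differed at least 2-fold at a P under 0.05 before adjustment, of which 299 (2.01%) rose and 200 (1.35%) fell. Here "rose" and "fell" are used only for genes past this pair of thresholds, which are not adjusted for the number of genes. Of them, 184 (1.24%) were also above both saline libraries in all 5 CXCL12 libraries and 134 (0.902%) were below. After Benjamini-Hochberg adjustment limma called 0 genes at 0.1, where the smallest adjusted p was 0.646 and 1127 genes (7.59%) had an unadjusted P under 0.05. At the same adjusted p, edgeR called 0 genes and DESeq2 called 34 on the 6 count libraries, or 0 and 122 with estimated counts for Day 3 replicate 1. A fit without either saline library leaves 1 in that group and takes its spread from the CXCL12 libraries alone. Its calls are not counted here and enter only the ranges with 1 library left out, given further below. Without saline replicate 1, 4226 genes lay on 1 side of saline, and without saline replicate 2, 7918 did, fewer libraries having to separate. The number of genes thus rested on the 2 saline libraries.

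**Figure D1:**
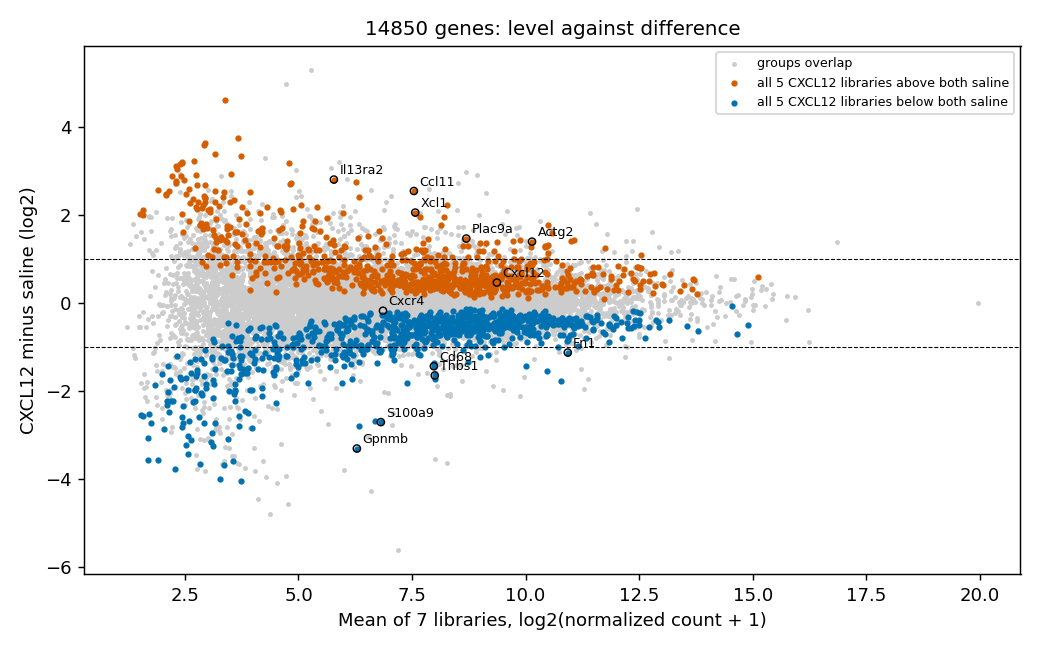
Difference between CXCL12 and saline (vertical axis, log2) against the mean level of the 7 libraries (horizontal axis, log2(normalized count + 1)) for 14850 genes, with the 800 genes above and the 820 genes below saline in every CXCL12 library in color and dashed lines at a fold of 2. S100a9 and Gpnmb lay among the largest falls at moderate level, and Cxcl12 and Cxcr4 lay near 0.

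The separations went with transcript length. The median longest transcript was 3262 bases for all tested genes with a length, 2124 bases for the higher genes and 4596 bases for the lower genes. Genes were divided by transcript length into 4 bins of equal size. In the bin with the shortest transcripts 10.4% were above and 2.74% below saline in every CXCL12 library, and in the bin with the longest 1.46% were above and 10.6% below. Saline replicate 1 varied most with length, with a median level of -0.22 in the shortest bin and 0.36 in the longest, relative to the mean of the libraries on the log2 scale, whereas saline replicate 2 was at -0.03 and 0. The Day 3 libraries ran the other way, from 0.13 to -0.13 and from 0.1 to -0.09, as did Day 8 replicate 1, from 0.23 to -0.13. Day 8 replicates 2 and 3 went from -0.02 to 0.01 and from -0.05 to 0.04. After a correction of each library for transcript length, 591 genes were above and 707 below in every CXCL12 library, 9.09% of 14287 genes with a length, of which 483 and 536 were the same genes as without it. Beside a gene group below, counts are also given with TMM and upper-quartile scale factors and after this correction where they differed by over 1.5 times or the member named lost its place.

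**Figure D2:**
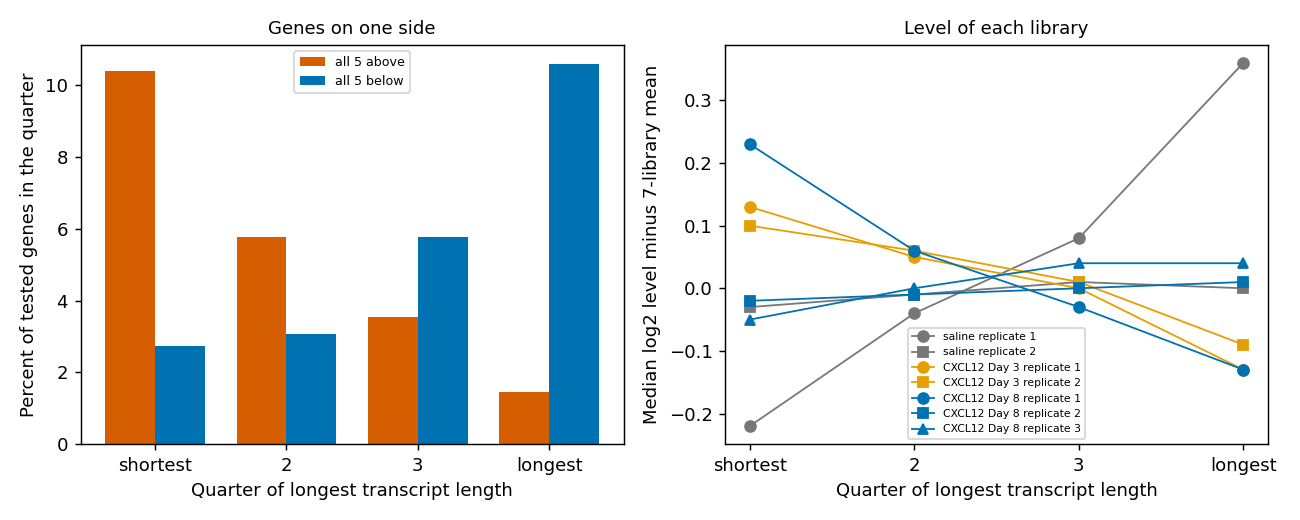
Left, percent of tested genes in each of 4 bins of longest transcript length (bars) with all 5 CXCL12 libraries above or below both saline libraries. Right, median log2 level of each library relative to the 7-library mean in the same bins, where saline replicate 1 runs from -0.22 to 0.36 and saline replicate 2 stays between -0.03 and 0.01.

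Transcripts of neutrophils and inflammatory myeloid cells were the list with the largest share below saline. Of 20 tested members, 9 were below both saline libraries in every CXCL12 library, against 5.52% of all genes, 1 (Retnlg) was above, and 10 fell, none rose (against 1.35% and 2.01% of all genes). The median log2 difference of the list was -1.35, beside -0.01 for all tested genes. Without saline replicate 1 the median was -1.48, and without saline replicate 2 it was -0.48. Some members, such as Cxcr2 and Clec4e, passed the minimum level only through the saline libraries. With at least 10 counts asked of all 7 libraries, 5 of 11 tested members were below saline and 1 above, against 675 of 12451 genes below. In that setting 5 members fell, and the median was -0.92. The summed level of the list did not follow its median, at 4571 and 5849 in saline, 3238 and 3191 at Day 3, and 2818, 4967 and 7609 at Day 8. Its most abundant member was Hdc, the histamine-forming enzyme that mast cells also carry, at 967 and 816 in saline, 642 and 655 at Day 3, and 922, 2018 and 3997 at Day 8. In bulk tissue, fewer cells of a type and less RNA per cell cannot be told apart.

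S100a8 and S100a9 encode the subunits of calprotectin, an alarmin of neutrophils and monocytes, from neighboring genes on chromosome 3. Their promoters are shown because they were the calprotectin pair that fell together, next to 2 promoters of NK cell genes that rose, Xcl1 and Klrb1c. Each line gives 250 bases before to 50 bases after the RefSeq start in GRCm38.p6, 5′ to 3′ on the strand of the gene. Capitals mark a C/EBP core (TTGCNNAA), an ETS core (GAGGAA) or a T-box element (TCACACC), each read on both strands. No matches overlapped. The regions are chr3:90668821-90669120 (plus strand) for S100a8, chr3:90695672-90695971 (minus strand) for S100a9, chr1:164935473-164935772 (minus strand) for Xcl1 and chr6:128788592-128788891 (minus strand) for Klrb1c.
S100a8: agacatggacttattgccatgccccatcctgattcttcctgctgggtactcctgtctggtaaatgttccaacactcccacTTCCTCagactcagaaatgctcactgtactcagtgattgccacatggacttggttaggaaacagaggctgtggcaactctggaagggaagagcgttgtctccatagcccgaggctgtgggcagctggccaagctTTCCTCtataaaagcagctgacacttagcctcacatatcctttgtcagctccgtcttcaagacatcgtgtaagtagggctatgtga
S100a9: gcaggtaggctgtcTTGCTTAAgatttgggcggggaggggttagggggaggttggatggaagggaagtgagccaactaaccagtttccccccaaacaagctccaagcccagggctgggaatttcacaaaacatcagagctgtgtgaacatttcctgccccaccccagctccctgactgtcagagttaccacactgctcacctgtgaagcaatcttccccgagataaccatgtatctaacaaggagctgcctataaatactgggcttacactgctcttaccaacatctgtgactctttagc
Xcl1: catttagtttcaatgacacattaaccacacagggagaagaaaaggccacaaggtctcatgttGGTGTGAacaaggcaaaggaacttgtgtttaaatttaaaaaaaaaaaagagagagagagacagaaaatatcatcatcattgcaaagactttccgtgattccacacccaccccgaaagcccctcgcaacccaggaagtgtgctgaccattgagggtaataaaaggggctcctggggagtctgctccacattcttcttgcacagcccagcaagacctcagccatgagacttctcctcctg
Klrb1c: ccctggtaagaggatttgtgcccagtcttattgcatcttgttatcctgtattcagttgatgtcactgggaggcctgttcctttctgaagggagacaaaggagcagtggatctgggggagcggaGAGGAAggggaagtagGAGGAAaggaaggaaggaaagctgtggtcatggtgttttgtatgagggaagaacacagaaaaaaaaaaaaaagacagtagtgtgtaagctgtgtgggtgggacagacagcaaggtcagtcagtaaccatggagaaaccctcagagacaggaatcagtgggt
S100a8 had 2 ETS cores, with first bases 170 and 36 bases before the start. S100a9 had a C/EBP core 236 bases before its start, Xcl1 a T-box element 188 bases before, and Klrb1c 2 ETS cores 127 and 111 bases before. Among 32851 promoters of this length, 10.8% held the C/EBP core, 28.3% the ETS core and 3.98% the T-box element. Among genes below saline in every CXCL12 library with a promoter in the table (603 of them), these shares were 6.97%, 28.5% and 2.82%, and among those above (611), 8.84%, 28.5% and 4.09%. For all 11106 tested genes with a promoter they were 8.6%, 27.1% and 3.46%. A match describes letters and not binding.

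S100a9 had 293 and 630 normalized counts in saline, 88.7 and 45.8 at Day 3, and 83.7, 57.1 and 58.2 at Day 8. No CXCL12 library came near saline, the gap being -1.71 on the log2 scale. Its mean was 66.7 ± 18.5 (SD, n = 5) with CXCL12 and 462 ± 238 (SD, n = 2) with saline, a log2 difference of -2.71 ± 0.39 (SE). The limma P was 6.7e-05 and the adjusted p 0.646, with adjusted p values from 6.1e-07 to 0.87 over 21 alternative settings. Leaving out any library kept the log2 difference between -3.27 and -2.17. S100a8 was at 212 and 700 in saline, 59.3 and 45.8 at Day 3, and 162, 35.1 and 46.7 at Day 8. Day 8 replicate 1 was the closest to saline for this gene, and the log2 difference was -2.68 ± 0.63 (SE).

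Thbs1, a secreted inhibitor of angiogenesis that is also released by activated platelets and monocytes, was at 820 and 410 in saline, 161 and 263 at Day 3, and 177, 167 and 168 at Day 8. Day 3 replicate 2 was the highest of the CXCL12 libraries, still under both saline libraries, and Thbs1 fell by 1.65 ± 0.32 (SE) on the log2 scale. Thbs2, its relative, was at 302 and 95.1 in saline and between 39.0 and 65.9 in the CXCL12 libraries.

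The neutrophil attractant Cxcl2 had 24.8 and 98.3 in saline, 4.56 and 6.18 at Day 3, and 6.76, 0.790 and 12.4 at Day 8. Cxcr2, the receptor of that chemokine on neutrophils, was at 29.6 and 15.8 in saline and between 0.461 and 6.18 in the CXCL12 libraries. Ligand and receptor were thus both low in every CXCL12 library, several of these values being near the floor of 3 counts. The cytokine gene Il1b had 53.2 and 87.4 in saline, 7.52 and 15.8 at Day 3, and 12.6, 7.05 and 38 at Day 8. Clec4e, a receptor for damaged cells and mycobacterial lipid, was at 11.2 and 70.1 in saline and between 0.113 and 6.18 with CXCL12. The gelatinase Mmp9 had 375 and 187 in saline and between 91.7 and 163 with CXCL12. Not all of the list moved this way. Retnlg, a secreted product of granulocytes, was at 804 and 593 in saline and between 837 and 1640 with CXCL12, and after the length correction it was no longer above saline in every library. Ly6c2, a surface marker of inflammatory monocytes, and Ccr2, the monocyte chemokine receptor, had differences of 0.75 ± 0.45 and -0.11 ± 0.42 (SE) on the log2 scale and overlapped with saline.

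Macrophage genes were divided. Of 21 tested members, 5 (23.8%, against 5.52% of all genes) were below both saline libraries in every CXCL12 library and none above, 5 fell and 1 rose (against 1.35% and 2.01% of all genes), and the median log2 difference was -0.48. Without saline replicate 1 the median was -0.49, and without saline replicate 2 it was -0.75. Among the members below were Cd68, Cd163, Ctss and Trem2. Cd68, a lysosomal glycoprotein, had 695 and 382 in saline, 172 and 168 at Day 3, and 171, 202 and 237 at Day 8, a log2 difference of -1.44 ± 0.28 (SE). The highest CXCL12 library stood well under the lower saline library. Cd163, the scavenger receptor for haptoglobin and hemoglobin, was at 59.7 and 42.5 in saline and between 3.85 and 18.6 with CXCL12. The lysosomal protease gene Ctss, the most abundant member, was at 4074 and 2278 in saline, 1045 and 742 at Day 3, and 640, 1631 and 1552 at Day 8. Other defining genes overlapped with saline, among them Adgre1, C1qa and Csf1r. Csf1r, the receptor for the macrophage growth factor, was at 1312 and 506 in saline, 294 and 275 at Day 3, and 208, 576 and 584 at Day 8. The summed level of the list was 17209 and 12101 in saline, 8102 and 6265 at Day 3, and 5465, 12609 and 12925 at Day 8, so 2 Day 8 libraries lay within the saline range.

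Gpnmb, a glycoprotein of lipid-laden and phagocytic macrophages, and Clec7a, the receptor for fungal glucan, were among the 12 largest falls chosen by the same minimum level. Gpnmb had 695 and 231 in saline, 13.7 and 28.7 at Day 3, and 31.6, 133 and 55.4 at Day 8. Clec7a had 633 and 268 in saline, 75.6 in both Day 3 libraries, and 117, 199 and 160 at Day 8. In both genes Day 8 replicate 2 was the highest CXCL12 library, the library with the most ovarian transcript. Their log2 differences were -3.31 ± 0.78 and -1.81 ± 0.48 (SE). With any 1 library left out, that of Clec7a ranged from -2.44 to -1.19. Itgam, the integrin chain of myeloid cells, was at 367 and 315 in saline and between 110 and 267 with CXCL12.

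With the quantile normalization used here, NK cell transcripts were the list with the largest share above saline. With TMM and upper-quartile scale factors, ribosomal protein genes (70 and 68 of 75) and red cell markers (4 of 9 with both) had larger shares. Of 20 tested members, 8 were above both saline libraries in every CXCL12 library, against 5.39% of all genes, 1 (Itga2) was below, and 7 rose, none fell (against 2.01% and 1.35% of all genes). The median log2 difference was 1.02. The list median of each library, relative to the mean of the 7, was -0.59 and -0.84 in saline, -0.12 and 0.03 at Day 3, and -0.21, 0.85 and 1.08 at Day 8. Day 8 replicates 2 and 3 were highest, and Day 8 replicate 1 stood with the Day 3 libraries. The count above saline was 6 with TMM scale factors, 4 with upper-quartile scale factors and 5 after the length correction, and the medians were 0.97, 0.95 and 0.86. The median was 1.23 without replicate 1 and 0.88 without replicate 2.

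Xcl1, the chemokine by which NK cells draw cross-presenting dendritic cells, was the most abundant member. It had 38 and 120 in saline, 217 and 195 at Day 3, and 191, 401 and 570 at Day 8. Every CXCL12 library was above saline replicate 2, the higher of the saline libraries, and the log2 difference was 2.05 ± 0.55 (SE). With any 1 library left out, the difference of Xcl1 ranged from 1.23 to 2.89. Klre1, a lectin-like receptor of NK cells, was at 9.76 and 54.2 in saline, 94.1 and 107 at Day 3, and 112, 115 and 265 at Day 8. Klrb1c, which encodes the NK1.1 antigen, differed less between the saline libraries, at 50.7 and 45.5, and was at 85.0 and 106 at Day 3 and 83.7, 138 and 161 at Day 8. Its log2 difference was 1.19 ± 0.34 (SE), with a range of 1.06 to 1.29 when any library was left out. Ncr1, the activating receptor NKp46, was at 12.5 and 18.6 in saline, 37.4 and 27.7 at Day 3, and 43.4, 106 and 142 at Day 8. Klra8 and Klra9, receptors for class I histocompatibility molecules, come from a family of near-identical genes whose reads can be divided among copies. The differences of the granule genes Gzma and Nkg7 were 1.19 ± 0.57 and 0.98 ± 0.48 (SE), and both lacked a P under 0.05. Gzmb, another granule protease, was at 3.65 and 33.6 in saline, 29.6 and 14.7 at Day 3, and 28.9, 154 and 242 at Day 8, overlapping with saline. The summed level of 10 tested markers of T and B lymphocytes was 389 and 253 in saline and between 242 and 336 with CXCL12. Of these, 2 (20%, against 5.52% of all genes) were below saline in every CXCL12 library, Ms4a1 and Mzb1, both low in all libraries. In this list 0 were above and 1 fell (against 1.35% of all genes). Ms4a1 passed the minimum level only through the saline libraries. With at least 10 counts asked of all 7 libraries, 0 of 5 tested lymphocyte markers were below saline, against 5.42% of all genes.

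**Figure D3:**
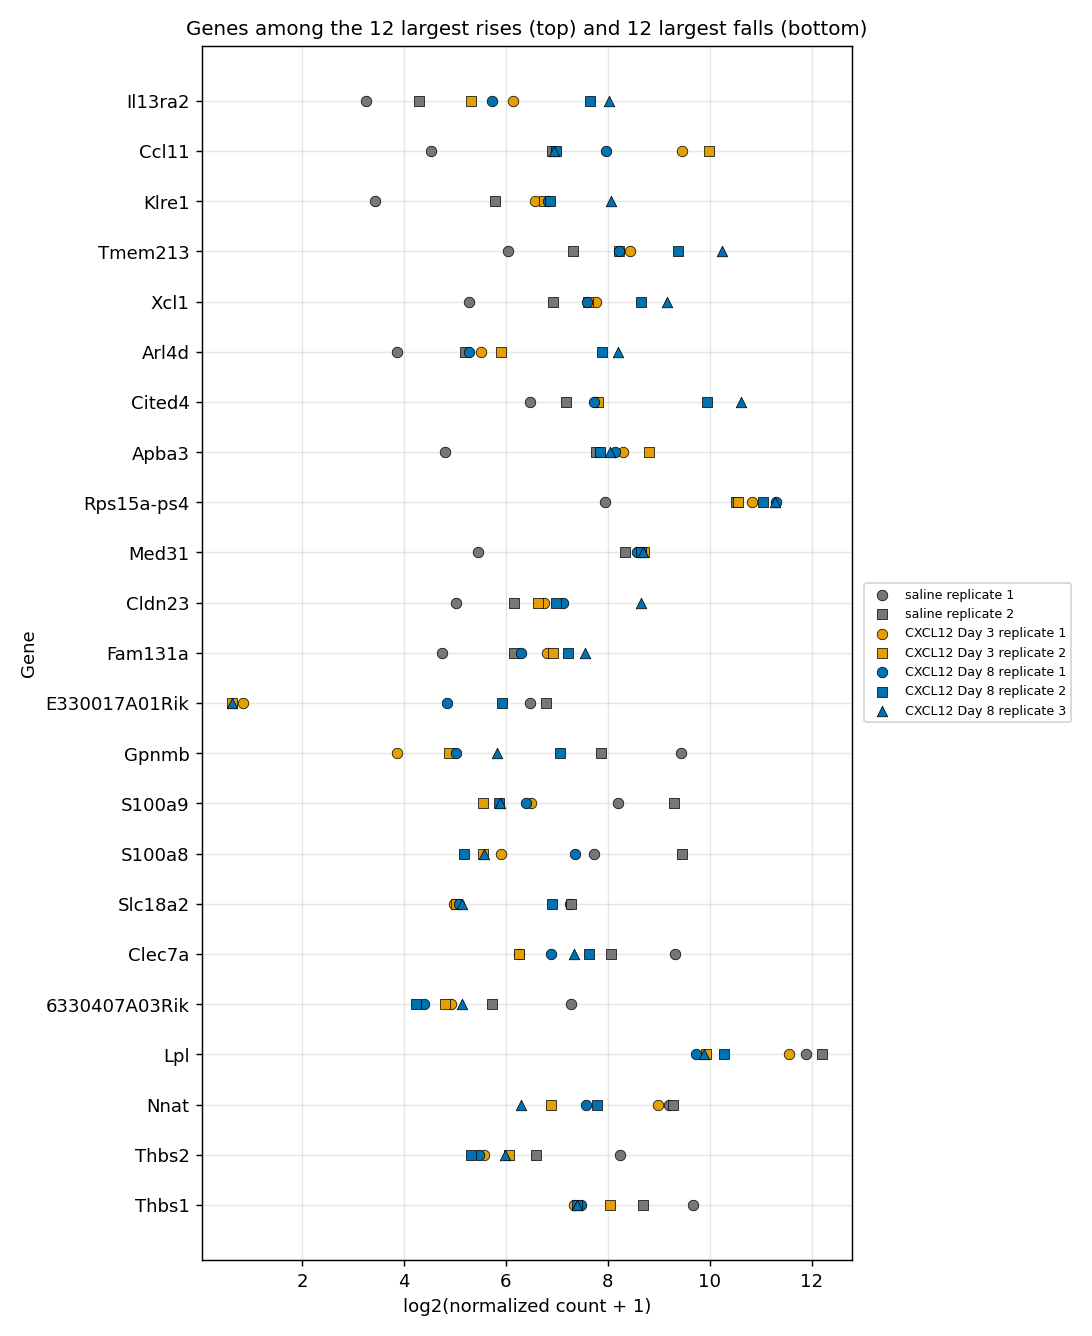
Level of genes among the 12 largest rises (top) and the 12 largest falls (bottom) in each of the 7 libraries, on log2(normalized count + 1), with 1 point for each library. Every CXCL12 point lies to the right of both gray saline points in the rises and to the left of both in the falls, and in Med31 and Apba3 saline replicate 1 lies far below saline replicate 2.

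Among genes on 1 side of saline with an unadjusted P under 0.05 and a mean of at least 100 counts in the higher group, the largest rise was that of Il13ra2, the decoy receptor for interleukin 13, which was at 8.57 and 18.6 in saline, 69.8 and 39.0 at Day 3, and 52.1, 201 and 259 at Day 8. The log2 difference was 2.80 ± 0.76 (SE), and the gap between the nearest libraries was 1.03. Ccl11, the eosinophil attractant eotaxin, was at 22.2 and 119 in saline, 705 and 1011 at Day 3, and 249, 125 and 121 at Day 8. Day 8 replicates 2 and 3 were nearly level with saline replicate 2, so this gene belonged to the set by a gap of 0.02. Tmem213, a membrane protein of epithelia, had 64.7 and 159 in saline, 347 and 296 at Day 3, and 298, 667 and 1206 at Day 8. Cited4, a transcriptional co-regulator, had 87.4 and 144 in saline, 216 and 222 at Day 3, and 212, 990 and 1561 at Day 8. In both, Day 8 replicates 2 and 3 were the highest. Cldn23, a claudin of tight junctions, was at 31.8 and 70.6 in saline and reached 405 in Day 8 replicate 3, the other CXCL12 libraries lying between 98.6 and 138. Arl4d, Apba3, Fam131a, Med31 and the pseudogene Rps15a-ps4 completed the 12 largest rises. For Apba3, Med31 and Rps15a-ps4 the saline libraries were far apart, at 27.0 and 215, 42.8 and 322, and 246 and 1468, and the nearest CXCL12 libraries were at 229, 381 and 1502. Those 3 separations were small against saline replicate 2 alone, and Med31 and Rps15a-ps4 lost theirs after the length correction. Arl4d lost its place with TMM and upper-quartile factors and after that correction. Rps15a-ps4 shares sequence with its parent gene, so its count is uncertain.

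Among genes with the widest gaps, some separated from saline libraries that lay close together. Plac9a and Plac9b, near-identical copies of a secreted placental protein whose reads cannot be told apart with certainty, were at 182 and 222 (Plac9a) and 221 and 227 (Plac9b) in saline. Plac9a was at 500 and 455 at Day 3 and 714, 553 and 577 at Day 8, a log2 difference of 1.46 ± 0.23 (SE) with a limma P of 0.000157 and an adjusted p of 0.646, which ranged from 0.0056 to 1 over 21 settings. Ier3, an early response gene that limits apoptosis, was at 595 and 577 in saline, 1027 and 1062 at Day 3, and 1020, 1235 and 1549 at Day 8. Its log2 difference of 0.99 ± 0.22 (SE) was just under the fold change of 2. Tceal3, a nuclear protein of the elongation factor family, had 111 and 128 in saline and between 208 and 328 with CXCL12. Guca2b, the gut and kidney peptide uroguanylin, had 22.2 and 15.8 in saline, 35.3 and 42.5 at Day 3, and 39.0, 712 and 879 at Day 8, so that Day 8 replicates 2 and 3 stood far above the other libraries, and its P was 0.0752 by limma before adjustment.

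Several of the largest falls outside the myeloid genes are given beside markers of ovary and fatty tissue, which they followed only in part. E330017A01Rik was at 87.4 and 109 in saline, 0.789 and 0.542 at Day 3, and 27.7, 59.5 and 0.543 at Day 8. The libraries in which it was high were those in which the ovarian enzyme Hsd3b1 was at 589 or more. The part of ovarian tissue in this fall was not tested. Slc18a2, the vesicular monoamine transporter, was at 152 and 153 in saline, 30.8 and 31.6 at Day 3, and 32.9, 120 and 34 at Day 8. Day 8 replicate 2 was again the highest CXCL12 library. Lpl, lipoprotein lipase, had 3774 and 4702 in saline, 2992 and 966 at Day 3, and 848, 1239 and 951 at Day 8. Nnat, a proteolipid of the endoplasmic reticulum, had 587 and 620 in saline, 503 and 116 at Day 3, and 191, 218 and 77.3 at Day 8. Lpl was no longer below saline in every CXCL12 library with TMM or upper-quartile factors. In both genes Day 3 replicate 1 was the CXCL12 library nearest to saline, and it was also the CXCL12 library with the most adipocyte transcript. Of 21 tested adipocyte markers, only Lpl was on 1 side of saline, their summed level was 18808 and 42156 in saline, 37024 and 6629 at Day 3, and 6778, 8965 and 7007 at Day 8, and none of the tested markers was at 0 in every library. Without Day 3 replicate 1, limma gave 10 of these markers as falls in place of 2, and 14 lay below saline in every CXCL12 library, while 154 of 14689 genes fell and 981 lay below in that setting. That library was the CXCL12 library highest in these same markers, so leaving it out favors such counts, and no conclusion is drawn from them. The part of fatty tissue in the falls of Lpl and Nnat was not tested. Plxnc1, a semaphorin receptor, Fndc1, a matrix protein, Dmxl2, a regulator of vesicle acidification, and Tnfaip2, a gene induced by tumor necrosis factor, had wide gaps below saline. Tnfaip2 was the tightest of them, with 289 and 313 in saline, 152 and 174 at Day 3, and 128, 158 and 154 at Day 8.

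**Figure D4:**
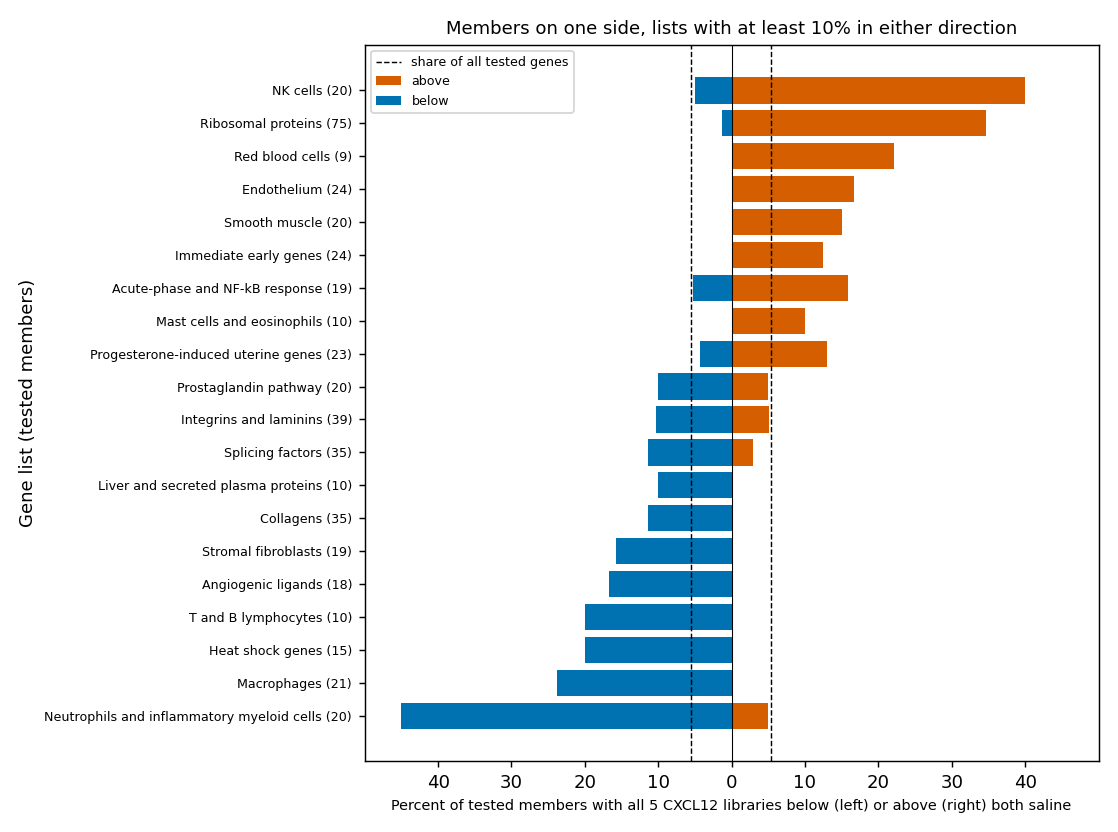
Percent of the tested members of each gene list (number in parentheses) with all 5 CXCL12 libraries above (right) or below (left) both saline libraries, for lists with at least 10% in either direction, and dashed lines at the shares of all tested genes (5.39% above, 5.52% below). The NK list reaches 40.0% above and the neutrophil and inflammatory myeloid list 45.0% below.

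Vascular genes were of interest because CXCL12 acts on endothelium. Of 24 tested endothelial markers, 4 (16.7%, against 5.39% of all genes) were above saline in every CXCL12 library (Clec14a, Aplnr, Emcn and Nos3) and none below, 1 rose (against 2.01% of all genes), and the median log2 difference was 0.25. The count was 2 with upper-quartile factors, where Clec14a and Nos3 dropped out, and Clec14a also lost its place with TMM factors. The median was 0.57 without saline replicate 1 and -0.03 without saline replicate 2. Emcn, the sialomucin of venous and capillary endothelium, had 299 and 333 in saline, 437 and 453 at Day 3, and 482, 601 and 592 at Day 8. Clec14a, an endothelial lectin of sprouting vessels, was at 135 and 229 in saline and 397, 383, 236, 405 and 427 in the CXCL12 libraries, with Day 8 replicate 1 level with saline replicate 2. Aplnr, the apelin receptor, was at 92.9 and 83.0 in saline and between 105 and 238 with CXCL12. Nos3, the endothelial nitric oxide synthase, was at 40.4 and 37.4 in saline and between 46.1 and 70.1 with CXCL12. Among 18 tested angiogenic ligands and inhibitors, 3 (16.7%, against 5.52% of all genes) were below saline in every CXCL12 library (Fgf1, Thbs1 and Thbs2), none was above, and 2 fell (against 1.35% of all genes).

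Among genes that the study followed by other assays, Itgb3, Spp1, Lif, Vegfa, Kdr, Pecam1, Cd34, Flt1, Tie1, Tek, Angpt1, Angpt2 and Hif1a were analysed here, and none of these lay on 1 side of saline in every library or passed the fold change and limma P. With TMM factors Cd34, a surface protein of endothelium, was above saline in every CXCL12 library. Itgb3, the β3 integrin chain of the receptive epithelium, was at 127 and 156 in saline, 266 and 320 at Day 3, and 114, 212 and 228 at Day 8, so Day 8 replicate 1 alone kept the groups from separating, and its log2 difference was 0.61 ± 0.38 (SE). Spp1, the integrin ligand osteopontin, was at 64.7 and 675 in saline and between 55.7 and 166 with CXCL12, so the saline libraries enclosed nearly all of the others. Lif, the cytokine required for implantation, was at 1.24 and 9.76 in saline and between 1.55 and 14.3 with CXCL12, near the floor of 3 counts. Vegfa, the main endothelial growth factor, had 222 and 428 in saline and between 316 and 443 with CXCL12. Its receptor Kdr had 639 and 377 in saline and between 210 and 477 with CXCL12. The log2 differences of Pecam1, Cd34, Flt1, Tie1, Tek, Angpt1, Angpt2 and Hif1a ranged from -0.39 (Angpt2) to 0.32 (Pecam1). With standard errors between 0.21 and 0.54, these intervals leave room for changes in either direction.

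The ligand and its receptors did not separate. Cxcl12 itself was at 482 and 574 in saline, 477 and 602 at Day 3, and 436, 1443 and 1104 at Day 8, and these reads come from the mouse gene, not from the infused protein. Day 8 replicates 2 and 3 stood above the rest, and the log2 difference over both days was 0.46 ± 0.46 (SE). Cxcr4 was at 145 and 111 in saline and between 85.0 and 167 with CXCL12, a log2 difference of -0.18 ± 0.31 (SE). Ackr3 was at 311 and 272 in saline, 407 and 330 at Day 3, and 212, 186 and 242 at Day 8. Dpp4, the protease that inactivates CXCL12, was at 288 and 350 in saline and between 283 and 580 with CXCL12. Of 32 tested signal transducers below CXCR4, 0 lay on 1 side of saline in every CXCL12 library, against 10.9% of all genes. Of the same 32, 0 passed the fold change and limma P, against 3.36% of all genes. Among chemokine receptors, Ackr4, the scavenger of CCL19, CCL21 and CCL25, rose, with 26.0 and 54.2 in saline, 167 and 105 at Day 3, and 71.5, 74.3 and 142 at Day 8.

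Muscle, blood and matrix genes gave smaller groups. In smooth muscle, 3 of 20 tested markers (15%, against 5.39% of all genes) were above saline in every CXCL12 library and none below. Actg2, the enteric form of smooth muscle actin, was at 550 and 582 in saline, 1491 and 1813 at Day 3, and 794, 1991 and 1720 at Day 8, a log2 difference of 1.39 ± 0.34 (SE). Cnn1 and Pcp4, both calmodulin-binding proteins of contractile cells, were closer to saline, with gaps of 0.06 and 0.03, and lost their place after the length correction, which left 1 marker above. Among markers of red blood cells, Slc4a1, the anion exchanger of the erythroid membrane, was above saline. It had raw counts of 0 and 3 in saline and normalized counts between 3.21 and 23.2 with CXCL12, and it lost its place with TMM and upper-quartile factors. The globin Hba-a1, the most abundant red cell transcript, did not separate, at 51420 and 67218 in saline and between 44157 and 92629 with CXCL12. With TMM and with upper-quartile factors Hba-a1 was above saline in every CXCL12 library, and so were 4 of the 9 tested red cell markers, in place of 2 (22.2%, against 5.39% of all genes). These factors did not raise the share of all genes above saline, 787 and 751 genes in place of 800. With at least 10 counts asked of all 7 libraries, 0 of 7 tested red cell markers were above saline, against 5.23% of all genes. Prg2, the major basic protein of eosinophils, had raw counts of 2 and 4 in saline and normalized counts between 9.58 and 15 with CXCL12, so it passed the minimum level only through the CXCL12 libraries.

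Of 35 tested collagens, 4 (11.4%, against 5.52% of all genes) were below saline in every CXCL12 library and none above. With TMM and with upper-quartile factors 2 were below and 1 above, and after the length correction 3 were below and 2 above. Fn1, the fibronectin gene, was at 4878 and 2373 in saline, 1491 and 1489 at Day 3, and 1753, 1475 and 1602 at Day 8. The CXCL12 libraries lay close together and well under both saline libraries, with a log2 difference of -1.13 ± 0.26 (SE). With any 1 library left out, the difference of Fn1 ranged from -1.66 to -0.61. Mfap4, a microfibril protein, was at 284 and 197 in saline and between 47.5 and 197 with CXCL12, touching saline replicate 2. Of 39 integrin and laminin genes, 4 (10.3%, against 5.52% of all genes) were below. The 2 above (5.13%) were no more than the 5.39% of all genes. The counts below were 6 with TMM and upper-quartile factors and 2 after the length correction. Lama1, a laminin chain of basement membranes, was at 47.0 and 55.8 in saline, 11.5 and 3.85 at Day 3, and 20.2, 33.6 and 4.72 at Day 8. Day 8 replicates 1 and 2, the CXCL12 libraries highest in Hsd3b1, were the highest for this gene too, and after the length correction Lama1 was no longer on 1 side. Itgb4, the hemidesmosomal integrin of epithelia, was at 105 and 207 in saline and between 222 and 494 with CXCL12, and it lost its place with upper-quartile factors.

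**Figure D5:**
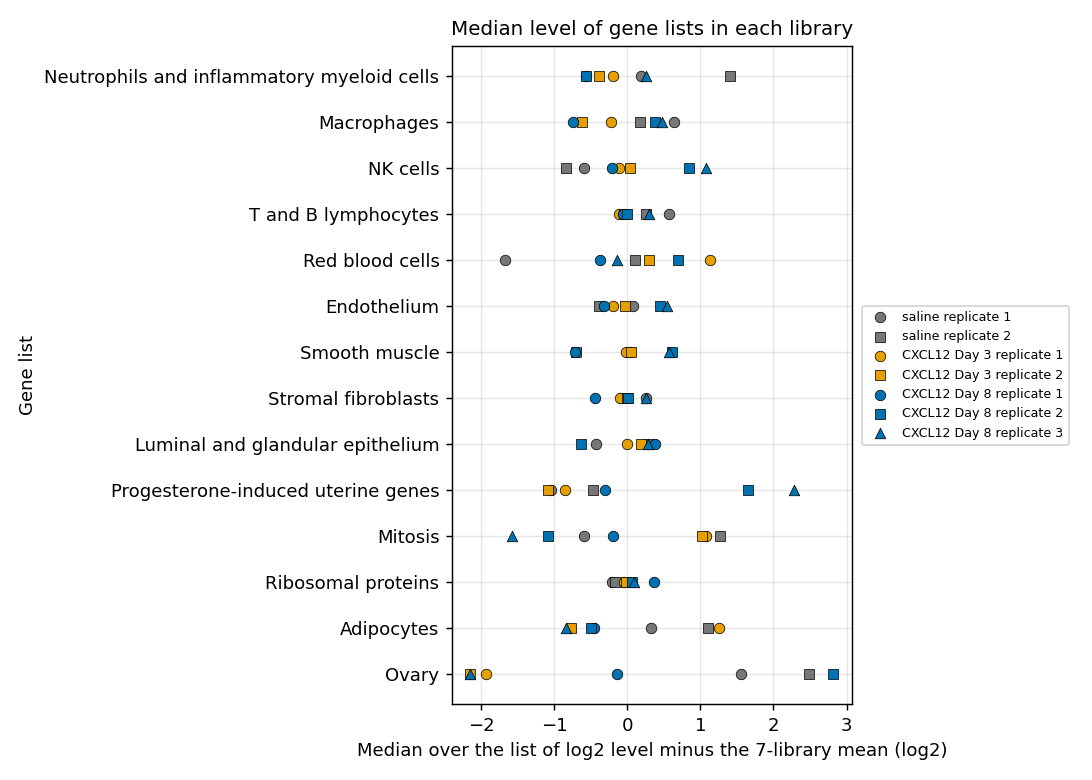
Median level of the tested members of 14 gene lists in each library, each gene taken relative to its mean over the 7 libraries (log2), with 1 point for each library. NK cell medians lie above both saline points in all 5 CXCL12 libraries, and the ovarian median ranges from -2.15 to 2.82.

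Secreted signals and responses to them were mixed. In the Wnt list 3 of 36 tested members (8.33%) were below saline and none above, a share not far from the 5.52% of all genes, and 2 with TMM and upper-quartile factors. Among them was Sfrp1, a secreted inhibitor of Wnt proteins, with 432 and 309 in saline, 104 and 115 at Day 3, and 109, 287 and 277 at Day 8. In the BMP and TGF-beta list 2 of 36 were below, a share like that of all genes, namely Bmp3 and the receptor gene Bmpr1b, and both fell, by 1.37 ± 0.57 and 1.28 ± 0.48 (SE) on the log2 scale. In the acute-phase list 3 of 19 (15.8%, against 5.39% of all genes) were above and 1 below. Saa2, an acute-phase protein, was at 0.542 and 3.65 in saline, 12.4 and 8.71 at Day 3, and 18.6, 127 and 9.58 at Day 8. It thus passed the minimum level only through CXCL12 libraries. With at least 10 counts asked of all 7 libraries, 2 of 13 tested acute-phase members were above saline, against 5.23% of all genes, and 0 below. Cebpd, a transcription factor of the acute-phase response, was at 267 and 296 in saline, 445 and 448 at Day 3, and 472, 972 and 1149 at Day 8. Immediate early genes had 3 of 24 (12.5%, against the same 5.39%) above and none below, namely Ier2, Ier3 and Maff, and 2 with TMM or upper-quartile factors or after the length correction, in each of which Ier2 lost its place.

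Progesterone-induced genes had 3 of 23 tested members (13%, against 5.39% of all genes) above saline, Il13ra2, Calca and Prss28, and 1 below. The count above was 2 with TMM and 1 with upper-quartile factors, both of which removed Calca and Prss28 while TMM added Ctla2a, and 2 after the length correction, which removed Prss28. For Prss28, a protease of uterine glands, raw counts were 0 in both saline libraries, and normalized counts were 1.05 and 0.542 at Day 3 and 0.462, 1289 and 1911 at Day 8. Day 8 replicates 2 and 3 alone were thus above the floor, and the place of Prss28 in the set came from values that counting error cannot tell from 0. The same held for Calca, the calcitonin gene, at 45.7 and 50.2 in those 2 libraries and between 1.55 and 2.98 in the other CXCL12 libraries. With at least 10 counts asked of all 7 libraries, 1 of 16 tested members was above saline, against 5.23% of all genes. Prss29, a relative of Prss28, was at 6315 and 8879 in Day 8 replicates 2 and 3 and at 3.65 or less in the other 5. Ctla2a, a protease inhibitor of the decidua, was at 2373 and 1590 in saline, 2214 and 2281 at Day 3, and 2073, 58513 and 74983 at Day 8. For Prss29 and Ctla2a the groups overlapped, with Day 8 replicate 1 standing among the Day 3 and saline libraries.

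Ribosomal protein genes had 26 of 75 tested members (34.7%, against 5.39% of all genes) above saline in every CXCL12 library and 1 below, 3 rose (against 2.01% of all genes), and their median log2 difference was 0.31. Examples were Rpl9, at 1233 and 1507 in saline and between 1855 and 2897 with CXCL12, and Rpl28, at 2401 and 4099 in saline and between 4629 and 6303 with CXCL12, which lost its place after the length correction. The count was 70 with TMM scale factors and 68 with upper-quartile scale factors, and it was 8, with a median of 0.03, after the length correction. Their median longest transcript was 1094 bases. Many of these genes have processed pseudogenes that share reads with them. Subunits of the respiratory chain had 5 of 57 (8.77%, against 5.39% of all genes) above and none below. The count above was 11 with TMM and 13 with upper-quartile factors and 1 after the length correction. Among the 5 was Ndufa1, which that correction removed, at 460 and 2467 in saline and between 2674 and 3149 with CXCL12, so that the separation from saline replicate 2 was small. Heat shock genes had 3 of 15 (20%, against 5.52% of all genes) below, with Hsp90ab1, a cytosolic chaperone, at 46618 and 28588 in saline and between 20240 and 24303 with CXCL12. With TMM and with upper-quartile factors 0 of the list were below, Hsp90ab1 included, and 1 was above, so the direction of this list depended on the scaling. Of 49 lists in all, 11 had no member on 1 side of saline. Interferon-stimulated genes had 0 of 28, DNA replication 0 of 26 and mitosis 0 of 26, against 10.9% of all genes. In each of these 3 lists 0 passed the fold change and limma P, against 3.36% of all genes.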

How the data were processed

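Uterine RNA (500 ng of total RNA per library) was converted to QuantSeq 3′ libraries and sequenced to 75 bases. The authors aligned reads with Bowtie2 and counted them per gene with Bedtools, including reads with several alignments, so members of gene families can share reads. The submitters' processing notes name edgeR and the builds hg19 and mm10. The 6 deposited count tables held raw counts, and the table of Day 3 replicate 1 held log2 values of a normalized count + 1, per the values as deposited. Undone, 96.7% of 5503 low values were whole reads within 0.1 after division by 1.0525. Counting intervals were not computed, and the floor of 3 counts covers counting error only.

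Counts were scaled to the median total, taken to log2 with a pseudocount of 1, filtered (at least 10 in at least 2 libraries, 63.8% of gene rows kept), quantile-normalized and fitted with limma 3.58.1 in R 4.3.3 (mean-variance trend, 2 groups, 5 residual degrees of freedom). Calls needed a change of at least 2-fold and P under 0.05 before adjustment, and counts are also given at 0.1 after Benjamini-Hochberg adjustment. The smallest two-sided exact permutation p for 5 against 2 libraries is 0.0952, so no single value was tested that way. Alternatives used edgeR 4.0.16 and DESeq2 1.42.0, other scale factors, pseudocounts and filters, 3 groups, a replicate block, each library left out, and a correction for transcript length added after the data were seen. The fit was also run on simulated data, where unchanged genes too passed the fold change and P, and some passed the adjusted p.

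The comparison and all gene lists were chosen with earlier results of these data known. Genes named were the 12 largest rises and falls and the 10 widest gaps in each direction (on 1 side of saline, mean of at least 100 in the higher group), up to 4 separated members of each of 49 lists, the most abundant markers, the CXCL12 axis and genes of the study's own assays. Some genes that this rule chose are not reported here. Clec4e, Retnlg, Trem2, Klra8, Klra9, Gzma, Gzmb, Nkg7, Ly6c2, Ccr2, Adgre1, C1qa, Csf1r, Prss29, Pgr, Hoxa10 and the oocyte genes below were chosen after their values were seen. Promoters came from RefSeq (GRCm38.p6), and transcript lengths from GENCODE M21, which matched 96.2% of tested genes.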

Additional observations from a re-analysis of the deposited data

Results flagged for a closer look

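In 13 of 171 genes and list medians checked (7.6%, where chance gives about 1 in 20), a single CXCL12 library stood far from the other 4. Day 8 replicate 3 was high for Klre1 (265 normalized counts) and Cldn23 (405) and low for the oviduct list median (-1.25, log2 relative to the library mean). Day 8 replicate 2 was high for Slc18a2 (120), Saa2 (127) and the oocyte gene Oosp2 (3.21) and low for Clec4e (0.113). Day 8 replicate 1 was low for Clec14a (236) and for the collagen-binding integrin Itga2 (3.21). Day 3 replicate 2 was high for Thbs1 (263). Day 3 replicate 1 was high for Fabp4 (11445), the adipocyte list median (1.25) and the list median of liver and plasma proteins (2.21).

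In 3 cases the libraries of the days lay on opposite sides of the saline mean, and the difference was not tested. For Ackr3, the scavenging CXCL12 receptor, the log2 difference from saline was 0.33 at Day 3 and -0.46 at Day 8. The mean list median of the libraries, minus that of saline, was -0.21 at Day 3 and 1.97 at Day 8 for progesterone-induced genes. For mitosis genes it was 0.71 at Day 3 and -1.28 at Day 8. The saline medians of mitosis genes were far apart, at -0.59 and 1.27. Both Day 3 libraries (1.07 and 1.02) and Day 8 replicate 1 (-0.19) lay between them. For progesterone-induced genes the saline medians were -1.05 and -0.47, and Day 3 replicate 1, at -0.85, lay between them.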

How the results depend on the processing

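Against 499 genes past the fold change and P, 284 passed when 10 scaled counts were asked of all 7 libraries, and leaving out 1 library gave 229 to 2106. Both ends of that range, and the highest count below at an adjusted p of 0.1, came from fits with 1 saline library. No conclusion is drawn from them. Without 1 CXCL12 library, 379 to 605 genes passed the fold change and P, and 0 or 1 passed the adjusted p. The share of calls that were rises was 59.9%, against 49.9% with upper-quartile factors and 48.9% with a pseudocount of 10. It was 43.5% and 36.6% with edgeR on 6 and 7 libraries and 46.4% without Day 8 replicate 2. At an adjusted p of 0.1, limma called 0, DESeq2 called 34 (6 libraries) and 122 (7), limma 17 with Day 8 replicate 1 placed at Day 3 and 1 after the length correction, and 0 to 1579 with 1 library left out. Genes on 1 side of saline numbered 1912 to 7918 with 1 library left out, fewer libraries having to separate, and 2871 (321 higher, 2550 lower, against 800 and 820) as CPM of the 6 count libraries, where the median log2 difference of all genes was -0.27.

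Directions turned for genes near 0 or listed as overlapping, and the cause was not tested. With edgeR on 6 libraries the log2 differences were 0.1 for Tek, 0.03 for Angpt1, 0.65 for Hsd3b1 and 0.07 for Ccr2, and on 7 libraries -0.03 for Lif, 0.32 for Hsd3b1 and 0.03 for Ccr2. With DESeq2 they were -0.37 for Lif, 0.1 for Tek, 0.04 for Angpt1 and 0.08 for Ccr2 (6 libraries), and -0.01 for Lif and 0.03 for Ccr2 (7). Angpt1 was at 0.02 with Day 8 replicate 1 at Day 3. After the length correction Flt1 was at 0.08, Angpt1 at 0.01, Hif1a at 0.05, Hba-a1 at -0.21 and Ccr2 at 0.07. With any 1 library left out, the log2 difference ranged from -0.37 to 0.01 for Cxcr4, -0.63 to 0.83 for Lif, -0.16 to 0.79 for Vegfa, -0.55 to 0.23 for Flt1, -0.28 to 0.16 for Angpt1, -0.05 to 0.34 for Hba-a1, -1.45 to 0.06 for C1qa, -1.3 to 0.73 for Hoxa10, -2.61 to 0.76 for Spp1, -0.08 to 0.72 for Pecam1, -0.01 to 0.39 for Cd34, -0.14 to 0.69 for Tie1, -0.18 to 0.04 for Hif1a, -0.63 to 0.08 for Adgre1, -0.47 to 0.07 for Tek and -0.31 to 0.14 for Ccr2. A saline library set the bound that turned the direction in all of these but Tek and Ccr2, where it was Day 8 replicate 1.

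With the replicate block, 403 genes passed the fold change and P (254 rises, 149 falls). Deviations of same-numbered libraries correlated at -0.06, -0.14 and 0.01 across genes, so the numbers were not taken to pair the libraries. Limits of depth: genes near the floor of 3 counts, such as Cxcr2 and Lif, have imprecise folds.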

Other observations

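Below the level at which genes were named, several of the largest falls were oocyte genes, noticed after their values were seen. Obox1, an oocyte homeobox gene, was at 61.2 and 64.4 in saline, 0.788 and 0.542 at Day 3, and 16.1, 39.0 and 0.543 at Day 8. Btg4, which drives the clearance of maternal RNA, was at 80.8 and 59.7 in saline, 0.673 and 0.542 at Day 3, and 8.82, 40.9 and 0.543 at Day 8. Oosp2, a protein secreted by oocytes, was at 18.5 and 23.8 in saline and at 3.21 or less with CXCL12. Gdf9, the oocyte growth factor, overlapped, at 195 in both saline libraries, 5.63 and 4.92 at Day 3, and 73.4, 223 and 31.1 at Day 8. Obox1, Btg4 and Gdf9 were highest, among CXCL12 libraries, in Day 8 replicates 1 and 2, the 2 with the most Hsd3b1.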
